A study of Mus musculus with 6 samples.

Results

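Lipid droplets are the cell's stores of neutral lipid. Diacylglycerol acyltransferases make the triglyceride that fills them, perilipins coat their surface, and the triglyceride is taken apart in turn by adipose triglyceride lipase, hormone-sensitive lipase and monoglyceride lipase. *Hilpda* (hypoxia inducible lipid droplet associated) encodes a small droplet protein that binds and inhibits adipose triglyceride lipase and is a known target of hypoxia-inducible factors and of peroxisome proliferator-activated receptors. In T cells, stored lipid is one source of fatty acids for membranes and for oxidation.

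The 9 genes described here were *Hilpda*, *Plin2*, *Plin3*, *Pnpla2*, *Dgat1*, *Dgat2*, *Lipe*, *Mgll* and *G0s2*, and they were selected by symbol from the 16244 genes of the deposited table. They were chosen with their WT and N275D values already known, so the difference between the genotypes is given for these 9 genes as a description, with no test. Both groups were mouse Th17 cells grown for 3 days from naive splenic CD4+ T cells under anti-CD3 and anti-CD28 with IL-6, IL-1β and IL-23, the pathogenic condition. The study's methods also list TGF-β and antibodies to IL-4 and IFN-γ in the base medium of that condition. The WT group (3 libraries) came from wild-type mice. The study's methods list wild-type C57BL/6 mice as bought in, and its materials list them as C57BL/6NJ. For its transfer experiments they also name littermate controls when applicable. Which of these gave the WT libraries is not stated. The N275D group (3 libraries) came from mice carrying the N275D missense change, knocked in by CRISPR-Cas9. Their background is given as C57BL/6, without a substrain. Any difference in colony of origin or substrain cannot be told apart from genotype here. The N275D change is in the germ line and so is not limited to T cells. Mice of both sexes were 6 to 12 weeks old unless otherwise noted, and neither the zygosity of the donors of these libraries nor whether replicates were separate animals or cultures is given in the sources used here. The p-values below therefore measure the spread between libraries, which may be technical. In the fit that gave them, the spread of each gene was also drawn toward that of genes at a similar level (prior degrees of freedom 12).

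The values are normalized reads, that is, reads on a gene times 1 factor per library. Each library held 17659035 to 18510878 reads on genes. WT replicate 3 stood farthest from its group, at a median absolute log2 difference of 0.103 against 0.0557 to 0.0755 in the other 5 libraries. The 7 Th17 markers reported here were all present (summed normalized reads 73658 to 77751 in WT and 86152 to 87303 in N275D), of which 5 were called higher in N275D and *Cd3e* and *Cd4* were called lower. A missense change is not seen in a gene total, so these data do not check the labels. Markers of other cells that hold lipid droplets were low beside the Th17 markers. The 4 of 5 adipocyte markers that were listed summed to 2.02 to 4.91 normalized reads in WT and 0 to 3.99 in N275D, with *Adipoq*, *Plin1* and *Cidec* at 0 in at least 4 libraries. The 7 macrophage markers summed to 89.8 to 111 and 106 to 131, with *Cd14* called higher and *Adgre1* called lower. The 4 of 6 neutrophil markers that were listed summed to 2.02 to 4.04 and 8.98 to 12.04, with *S100a8* and *S100a9* at 0 in at least 4 libraries. The 4 B cell markers reported here summed to 101 to 108 and 139 to 184, and *Cd79a* and *Pax5* were called higher. These levels were not low beside the less expressed genes below. *Pax5* alone had 63.6 to 107 normalized reads over the 6 libraries, where *Dgat2* had 78.7 to 88.8. Of all genes fitted, 24.7% were called higher and 26.1% lower, so nothing particular to these markers is read from their calls. Of the macrophage markers 3 were tested, and of the B cell markers 3. The part of these marker differences in the values below was not tested, and in bulk RNA fewer cells of a type and less RNA per cell cannot be told apart.

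Because *Hilpda* is a textbook hypoxia-inducible factor target, the starts of the 9 genes were read for the 5-letter core these factors bind, ACGTG or GCGTG, on both strands of the 250 bases before each start. RefSeq (GRCm38.p6) had windows for 7 of the 9 genes, 10 windows in all, and *Dgat1* and *Dgat2* had none. *Hilpda* has 2 annotated starts, 138 bases apart on the plus strand of chromosome 6. The window before the upstream start, at chr6:29272238-29272487, is printed because the core is not in it:

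Hilpda, upstream start: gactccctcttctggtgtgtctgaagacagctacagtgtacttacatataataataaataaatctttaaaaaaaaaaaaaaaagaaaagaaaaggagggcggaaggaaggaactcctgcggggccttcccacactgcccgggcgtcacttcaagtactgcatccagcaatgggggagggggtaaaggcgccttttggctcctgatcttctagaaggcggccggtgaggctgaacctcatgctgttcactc

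The window before the downstream start held the core 3 times, at 111, 43 and 8 bases before that start (counted to the first base of the core). The stretches around these cores, with 8 bases on either side and the core in capitals, lie at chr6:29272507-29272527, chr6:29272575-29272595 and chr6:29272610-29272630:

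Hilpda, 111 bases before: cgcgagccGCGTGctttccgt
Hilpda, 43 bases before: gccagcggACGTGccccaggg
Hilpda, 8 bases before: ttcggtacGCGTGcgcagtct

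*Mgll*, the other of the 9 genes that was lower in N275D, held the core 4 times in the window before its first start, at chr6:88724162-88724411 on the plus strand, where CACGTG holds ACGTG on both strands and counts as 2. It is printed whole beside *Hilpda* because both genes are lower and both carry the core, in capitals:

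Mgll, first start: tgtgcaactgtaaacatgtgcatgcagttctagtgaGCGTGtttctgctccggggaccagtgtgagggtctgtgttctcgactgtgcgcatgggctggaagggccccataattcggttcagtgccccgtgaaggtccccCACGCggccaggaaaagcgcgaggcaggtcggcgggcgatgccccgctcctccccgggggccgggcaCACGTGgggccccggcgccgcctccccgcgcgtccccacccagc

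Genes that were higher in N275D also carried it. *Plin2* held 1 core, 86 bases before its start, on the minus strand at chr4:86670133-86670153, and *Lipe* held 3 before one of its 2 starts, of which the CACGTG stretch lies at chr7:25396129-25396150 on the minus strand:

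Plin2, 86 bases before: ggggttccCACGCcctcatcc
Lipe, 155 bases before: gggacgacCACGTGagggggcg

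The second *Mgll* window held 7 cores and the *G0s2* window 1. The *Plin3* and *Pnpla2* windows and the other *Lipe* window held none of these letters. In all, 6 of the 10 windows held either form and 4 held ACGTG. Of all 32817 RefSeq promoter windows of that length, 38.6% held either form, 16.6% held ACGTG and 2.58% held 4 or more cores. A match of 5 letters is a description of the sequence, not a site of binding, and nothing is drawn from it about direction.

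Of the 9 genes, 8 had a mean of at least 10 normalized reads over the 6 libraries and entered the fit, and *G0s2* did not. At an adjusted p under 0.05 over all 11908 genes fitted (limma), 4 of the 8 were called higher in N275D, where 24.7% of all genes fitted were, and 2 were called lower, where 26.1% were. With a change of at least 2-fold as well, *Dgat1* was called higher (2.73% of all genes) and *Hilpda* lower (0.857% of all genes). The WT and N275D libraries did not overlap for 6 of the 8, as for 57.7% of all genes fitted. Nothing is read from these counts, because the genes were chosen with this contrast known. The median log2 fold change of the 8 was 0.25, beside -0.0026 for all genes fitted, and the spread of each gene within a group was small, at a coefficient of variation of 1.24 to 13.0%.

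**Figure D1:**
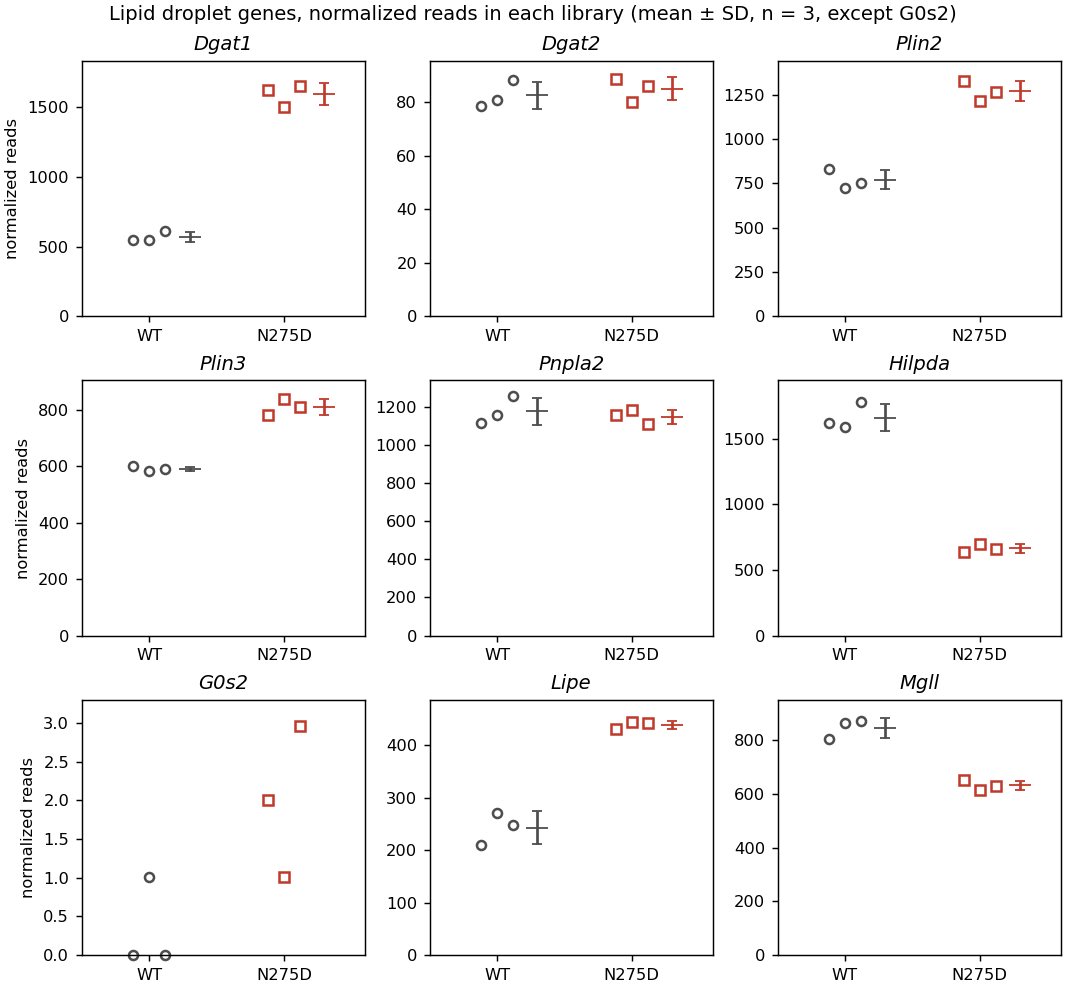
Normalized reads of the 9 lipid droplet genes (y axis, from 0, a scale of its own in each panel) in the 3 WT libraries (grey circles) and 3 N275D libraries (red squares), with the mean ± SD beside them except for G0s2. Dgat1, Plin2, Plin3 and Lipe sit higher in every N275D library, Hilpda and Mgll lower in every one, and Dgat2, Pnpla2 and G0s2 overlap.

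Of the 2 genes for the last step of triglyceride synthesis, *Dgat1* was higher in N275D and *Dgat2* overlapped between the groups. *Dgat1* (chr15:76502012-76512021) encodes the acyltransferase of the endoplasmic reticulum that joins a fatty acid to diacylglycerol. Its normalized reads were 547, 549 and 610 in WT and 1624, 1505 and 1653 in N275D. Every N275D library lay above every WT library, and the log2 fold change was 1.49 (standard error 0.06), or 2.80-fold, the 93rd highest of the 11908 genes fitted. *Dgat2* (chr7:99153663-99182713) encodes an unrelated enzyme that catalyses the same reaction. Its values were 78.7, 80.7 and 88.4 in WT and 88.8, 80.3 and 85.9 in N275D. The groups overlapped, and the log2 fold change was 0.04 (SE 0.12) and lay between -0.11 and 0.09 over the alternative settings.

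Both coat genes were higher in N275D. *Plin2* (chr4:86626910-86670217) encodes perilipin 2, the coat protein of droplets in most cells outside fat, where the protein is degraded when it is not bound to a droplet. Its reads were 830, 725 and 752 in WT and 1327, 1215 and 1262 in N275D, with no overlap, for a log2 fold change of 0.72 (standard error 0.06). *Plin3* (chr17:56278962-56290511) encodes perilipin 3, which moves from the cytosol onto newly formed droplets. It had 599, 584 and 589 normalized reads in WT and 780, 839 and 810 in N275D. These did not overlap either, and the log2 fold change was 0.45 (standard error 0.05).

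The gene of the first lipase overlapped between the groups, and that of its inhibitor *Hilpda* was lower in N275D. *Pnpla2* (chr7:141455188-141460743) encodes adipose triglyceride lipase, which removes the first fatty acid from triglyceride. Its reads were 1115, 1157 and 1254 in WT and 1154, 1182 and 1109 in N275D. The groups overlapped, the log2 fold change was -0.03 (standard error 0.05), and it lay between -0.07 and 0.02 over the alternative settings. *Hilpda* (chr6:29272488-29275449), the inhibitor, had 1616, 1589 and 1775 normalized reads in WT and 633, 694 and 662 in N275D. The lowest WT library held 1589 and the highest N275D library 694. The log2 fold change was -1.32 (standard error 0.06), 0.40 times the WT level, and the 48th lowest of the genes fitted.

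*G0s2* (chr1:193272160-193273188), the other known inhibitor of this lipase, was close to absent in both groups. It had 0, 1 and 0 reads in WT and 2, 1 and 3 in N275D. The sum was 1 read against 6, a ratio of 6.12 after scaling with an exact 95% interval of 0.743 to 282, which covers counting error only and is given as a description.

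The genes of the later steps of lipolysis differed in opposite directions. *Lipe* (chr7:25379527-25398486) encodes hormone-sensitive lipase, which acts mainly on diacylglycerol. Its reads were 209, 271 and 249 in WT and 430, 444 and 443 in N275D. All 3 N275D libraries were above all WT libraries, for a log2 fold change of 0.86 (standard error 0.09), and the WT values had the widest relative spread of the 8 genes fitted (13.0%). *Mgll* (chr6:88724412-88828360) encodes monoglyceride lipase, which releases the last fatty acid from glycerol and also degrades the endocannabinoid 2-arachidonoylglycerol. It had 803, 862 and 872 normalized reads in WT and 651, 616 and 630 in N275D. The groups did not overlap, and the log2 fold change was -0.42 (standard error 0.05).

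In RefSeq, *Plin2* overlaps the transcribed pseudogene *Gm12551*, *Lipe* the long noncoding RNA *4732471J01Rik* and *Mgll* the long noncoding RNA *Gm26588*. None of these 3 is listed in the table. The strand setting of the counting is not given in the sources used here, so reads of such pairs cannot be told apart. The other 6 genes overlap no annotated gene.

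Levels of different genes were compared per kilobase of the gene's longest protein-coding transcript. In WT cells *Hilpda* stood first, at 1690 ± 102 normalized reads per kb (SD, n = 3), followed by *Pnpla2* (448 ± 27.2), *Plin2* (407 ± 28.7), *Dgat1* (301 ± 19.0), *Mgll* (212 ± 9.33), *Plin3* (162 ± 2.01), *Lipe* (65.4 ± 8.51) and *Dgat2* (36.5 ± 2.26), with *G0s2* last. Of these neighbours, the libraries of *Pnpla2* and *Plin2* overlapped and those of all other pairs did not. In N275D cells *Dgat1* stood first at 844 ± 41.7, ahead of *Hilpda* (675 ± 31.2) and *Plin2* (672 ± 29.7), whose libraries overlapped. *Pnpla2* (437 ± 14.0), *Plin3* (222 ± 8.09), *Mgll* (158 ± 4.40), *Lipe* (118 ± 2.13) and *Dgat2* (37.6 ± 1.93) followed, with no overlap between neighbours. *Dgat1* thus went from place 4 to place 1 and *Hilpda* from place 1 to place 2. The order depended on the length used. With the median length of a gene's protein-coding transcripts, 5 of the 9 genes kept their place in WT, with *Hilpda* still first at 2024 ± 123, and in N275D *Plin2* came first at 1795 ± 79.5 and *Hilpda* took place 4 at 808 ± 37.4.

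**Figure D2:**
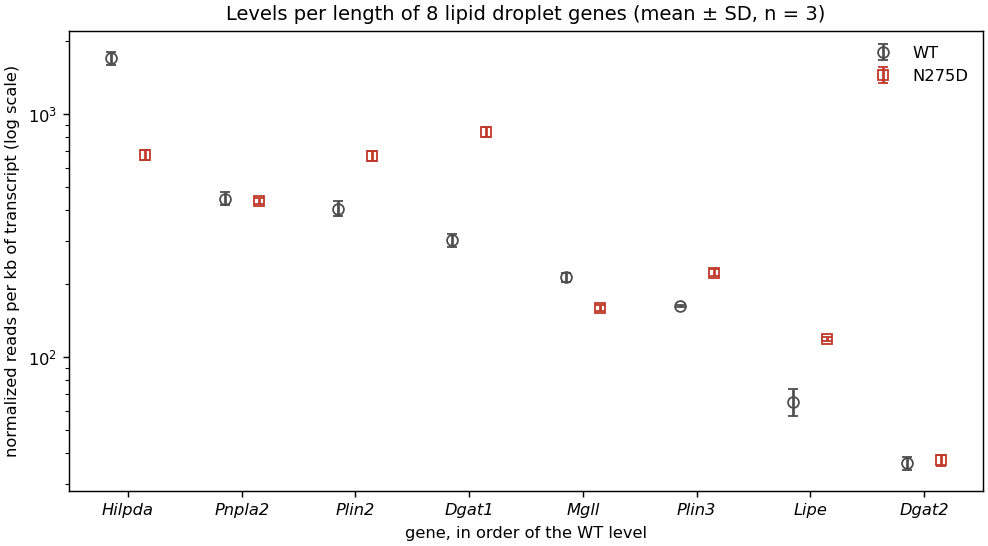
Normalized reads per kilobase of the longest protein-coding transcript (y axis, log scale) for 8 of the genes in the order of their WT level (x axis), as mean ± SD of 3 WT (grey circles) and 3 N275D (red squares) libraries. Hilpda leads in WT at 1690 and Dgat1 in N275D at 844, while Pnpla2 and Dgat2 lie level between the groups.

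Ratios within a library do not depend on its scaling factor. The ratio of *Dgat1* to *Dgat2* per length was 8.33, 8.15 and 8.27 in WT and 21.9, 22.5 and 23.1 in N275D. The ratio of *Hilpda* to *Pnpla2*, inhibitor to lipase, was 3.87, 3.67 and 3.78 in WT and 1.47, 1.57 and 1.59 in N275D. Both pairs were thus far apart between the genotypes, and in each pair one gene overlapped between the groups while the other did not.

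The ratio of *Mgll* to *Lipe* was 3.58, 2.96 and 3.27 in WT and 1.41, 1.29 and 1.32 in N275D. The ratio of *Plin2* to *Plin3* was nearer, at 2.68, 2.40 and 2.46 in WT and 3.29, 2.80 and 3.01 in N275D, although the groups did not overlap. These are ratios of RNA, and the size of each, but not its fold between the groups, depends on the transcript lengths used.

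**Figure D3:**
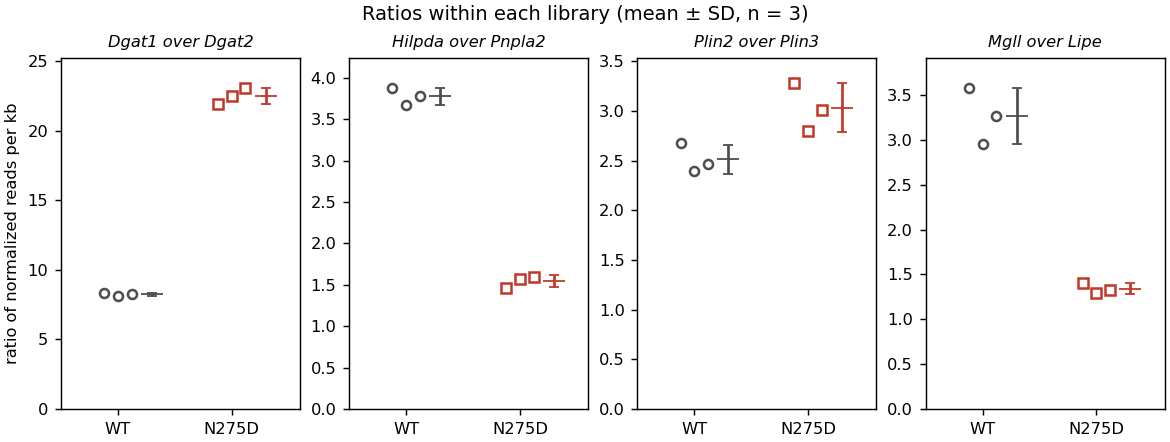
Ratio of normalized reads per kilobase (y axis, from 0) for 4 pairs of lipid droplet genes in each WT (grey circles) and N275D (red squares) library, with the mean ± SD of 3 libraries. Dgat1 over Dgat2 is higher in N275D (21.9 to 23.1 against 8.15 to 8.33), and Hilpda over Pnpla2 and Mgll over Lipe are lower.

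The genes whose values over the 6 libraries lay closest to those of *Hilpda* were named by the Euclidean distance of centred log2 values among 9581 genes with a mean of at least 100 normalized reads. They were *Dhrs3*, a retinaldehyde reductase (distance 0.09), *Nab2*, a corepressor of EGR factors (0.13), *Tnfsf9*, the 4-1BB ligand (0.19), *Tmem176b*, a membrane protein (0.20), and *Ccl3*, a chemokine (0.22). Their log2 fold changes were -1.36, -1.37, -1.43, -1.33 and -1.46, against -1.32 for *Hilpda*. The likeness is mostly that of a fold change between the same 6 libraries and is given as a description. Ranked by Pearson correlation in place of distance, the nearest 5 genes were *Sema7a*, *Hk2*, *Gtf3c1*, *Wdr18* and *Farsa*, with none in common.

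A wider list of 56 other genes of droplet metabolism and its control was set beside the 9. It was drawn up with earlier results of these data known, so it is not independent of them. The table listed 53 of them (*Plin4*, *Mogat2* and *Ldaf1* were not listed), and 38 had a mean of at least 10 normalized reads. By limma at an adjusted p under 0.05, 15 of the 38 were higher in N275D (39.5%, against 24.7% of all genes fitted), 5 were lower (13.2%, against 26.1%) and 18 were not called. The groups did not overlap for 24 of the 38, beside 57.7% of all genes fitted. The median log2 fold change was 0.04, beside -0.0026 for all genes fitted. The counts by role that follow are of few genes each, and nothing particular to a role is read from them. At 2-fold, *Soat2*, *Epas1*, *Gpat3* and *Vldlr* were called higher (2.73% of all genes fitted were) and none lower (0.857% were). Among genes with a mean of at least 100, the 2-fold calls were 2, since *Gpat3* and *Epas1* fell below that level.

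Of the coat genes of fat cells and other tissues, 5 of 6 were listed and none reached the minimum, the highest value in any library being 6.91 normalized reads. The coats above it were thus *Plin2* and *Plin3*. Of the 5 long-chain acyl-CoA synthetases, which activate fatty acids before they are esterified, 3 rose and 1 fell. *Acsl4*, which prefers arachidonic acid, had 3244 ± 298 normalized reads in WT and 5390 ± 103 in N275D (SD over 3 libraries), higher by 0.74 on the log2 scale (limma, adjusted p = 1.28e-08). *Acsl1* rose by 0.45 (limma, adjusted p = 0.000123) and *Acsl6* by 0.31 (limma, adjusted p = 2.64e-05). *Acsl5* fell by 0.27 from 4467 ± 220 to 3695 ± 33.3 (limma, adjusted p = 4.05e-05).

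Of 10 genes of the earlier steps of glycerolipid synthesis that were tested, 2 rose, 1 fell and 7 were not called. *Gpat3*, a glycerol-3-phosphate acyltransferase of the endoplasmic reticulum, went from 49.4 ± 2.15 to 119 ± 4.56 normalized reads, a log2 fold change of 1.25 (limma, adjusted p = 3.88e-07). *Lpin2*, a phosphatidate phosphatase, rose by 0.34 (limma, adjusted p = 0.00491), and the acyltransferase *Agpat5* fell by 0.39 (limma, adjusted p = 1.06e-05). Of the 2 enzymes that esterify cholesterol, *Soat2* went from 74.3 ± 3.20 to 212 ± 23.5, a log2 fold change of 1.49 (limma, adjusted p = 1.20e-08). *Soat1* was at 0.10 (limma, adjusted p = 0.125) and was called when WT replicate 1 was left out (limma, adjusted p = 0.0361). Of the 2 droplet formation genes tested, 0 were called by limma and 0 had an unadjusted p under 0.05.

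**Figure D4:**
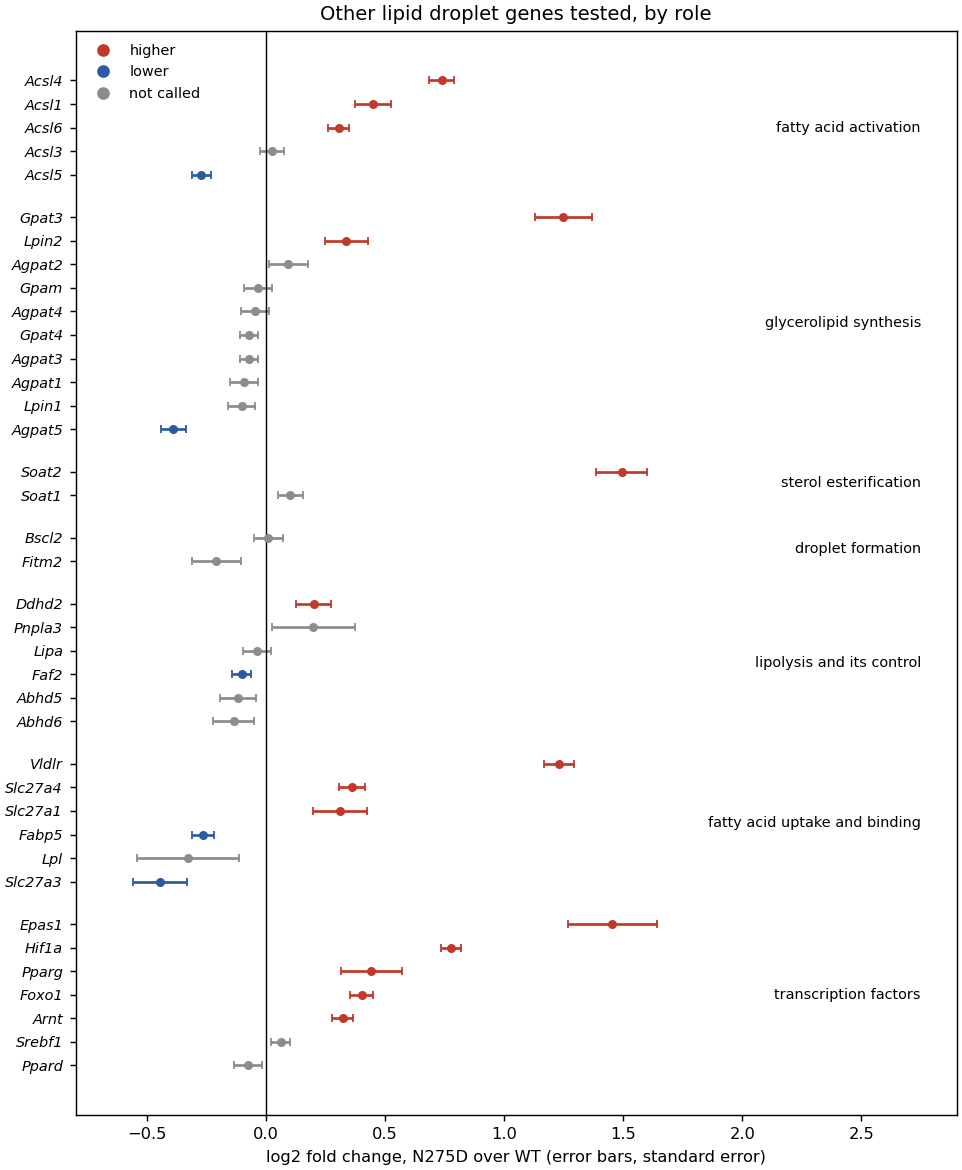
Log2 fold change of N275D over WT (x axis) with its standard error for the 38 genes of the wider list that were tested, grouped by role, in red where called higher, blue where called lower and grey where not called (limma, adjusted p under 0.05 over 11908 genes). Soat2, Epas1, Gpat3 and Vldlr lie past 1 on the log2 scale. Of the 7 transcription factors, 5 were called higher and 0 lower, beside 24.7% and 26.1% of all genes fitted.

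Of 6 further lipases and their regulators, 1 rose and 1 fell, both by little. *Abhd5*, which encodes the coactivator of adipose triglyceride lipase, was at -0.12 (limma, adjusted p = 0.200). *Ddhd2*, a triglyceride lipase best known from the brain, was at 0.20 (limma, adjusted p = 0.0297), with overlapping libraries. *Faf2*, whose product on droplets restrains adipose triglyceride lipase, was at -0.10 (limma, adjusted p = 0.0472). Neither call held in every fit that left out 1 library. That of *Ddhd2* was lost without WT replicate 2 or 3 or N275D replicate 1 or 3 (adjusted p 0.0562 to 0.143), and that of *Faf2* without any one library but WT replicate 3 (adjusted p 0.0528 to 0.196).

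Of 6 genes of fatty acid uptake and binding, 3 rose and 2 fell. *Vldlr*, the receptor for very low density lipoprotein, went from 282 ± 8.003 to 663 ± 31.9 normalized reads, a log2 fold change of 1.23 (limma, adjusted p = 2.14e-10). The fatty acid transport protein gene *Slc27a4* rose by 0.36 (limma, adjusted p = 3.84e-05), and its relative *Slc27a3* fell by 0.45 (limma, adjusted p = 0.00356). *Slc27a1* was at 0.31 (limma, adjusted p = 0.0304), a call lost without WT replicate 1 or any one N275D replicate (adjusted p 0.0540 to 0.120). *Fabp5*, a fatty acid binding protein, fell by 0.27 from 4353 ± 109 to 3624 ± 231 (limma, adjusted p = 0.00013).

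Of the 7 transcription factors tested that are known to act on these genes, 5 rose and none fell by limma, nor was any lower at an unadjusted p under 0.05, beside 24.7% higher and 26.1% lower of all genes fitted. *Hif1a*, which encodes the oxygen-regulated subunit of hypoxia-inducible factor 1, went from 5137 ± 317 to 8785 ± 55.9 normalized reads, a log2 fold change of 0.78 (limma, adjusted p = 4.00e-10). *Epas1*, which encodes the corresponding subunit of factor 2, went from 20.4 ± 3.43 to 57.1 ± 4.75, a log2 fold change of 1.45 (limma, adjusted p = 8.93e-06). Their partner *Arnt* rose by 0.32 (limma, adjusted p = 1.59e-05). *Hilpda*, a known target of these factors, was thus lower in the same libraries in which the RNA of all 3 subunits was higher. Protein levels were not measured in these libraries. The study reports that HIF-1 signaling genes as a set were enriched in N275D cells in its RNA sequencing.

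*Pparg*, a nuclear receptor of fat storage, was at 0.44 (limma, adjusted p = 0.00899), a call lost without N275D replicate 1 (adjusted p = 0.0536). *Ppard* was at -0.08 (limma, adjusted p = 0.306), and *Ppara* had 0 to 2.02 normalized reads and was not tested. *Foxo1*, a known activator of *Pnpla2* transcription, rose by 0.40 (limma, adjusted p = 5.89e-06), while the *Pnpla2* groups overlapped.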

How the data were processed

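RNA from 6 mouse Th17 samples was sequenced by the authors as strand-specific poly-A mRNA libraries, aligned to mm10 with STAR and counted with featureCounts. Tool versions are not given in the sources used here. The deposited table holds normalized reads (a signal that is never negative) scaled by the authors, whose methods name DESeq2. In every library 100% of the values were whole multiples of 1 step (tolerance 1e-06), and all 6 sample columns were used (0 unused).

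Log2(value + 1) was fitted with limma 3.58.1 in R 4.3.3 (trended prior, genes with a mean of at least 10, Benjamini-Hochberg over 11908 genes, called at an adjusted p under 0.05). Fold changes are on that scale, which understates those of low genes. The fit was also run on simulated counts, where a call needed a minimum fold change besides the adjusted p. Calls by adjusted p alone were thus not tested by it, and its outcome is not given here. The 9 genes and all lists were chosen with earlier results of these data known. Named genes were all 9, the 2 largest calls in each direction per role, all calls at 2-fold, genes of known regulation and the 5 nearest to *Hilpda*. *Acsl6*, *Slc27a1*, *Arnt* and *Soat1*, and the 5 genes by Pearson correlation, were named after their values were seen. Levels per length used GENCODE M21 transcripts, since RefSeq lengths were not used here. Gene coordinates and promoters are from RefSeq GRCm38.p6, the assembly behind mm10. Alternatives were the pseudocount, filter, scaling, prior, replicate block and leaving out each library. Replicates of a group differed by more than counting noise (median chi-square ratio 1.32 to 3.05), so each counted as 1. Of the marker lists, 2 genes are not reported here.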

Additional observations from a re-analysis of the deposited data

How the results depend on the processing

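The lipid droplet genes gave 4 higher and 2 lower calls under all 14 alternative settings, although *Dgat2* was not fitted among genes with a mean of at least 100, and *G0s2* was fitted, and not called, only with all genes above 0. In the main fit 24.7% of all genes fitted were called higher and 26.1% lower. The settings refit the same libraries, and the genes were chosen with this contrast known, so nothing is read from these counts. The log2 fold change of *Hilpda* lay between -1.36 and -1.27, of *Dgat1* between 1.46 and 1.54, of *Lipe* between 0.76 and 0.94, of *Plin2* between 0.68 and 0.78, of *Plin3* between 0.43 and 0.48 and of *Mgll* between -0.46 and -0.40. *Dgat2* was at -0.11 under quantile normalization. Of the wider list, 12 to 15 genes were called higher and 4 to 7 lower over the same settings, and without 1 replicate 12 to 15 and 4 to 5. It had 2 calls at 2-fold among genes with a mean of at least 100, because fewer genes were tested there, and 4 under every other setting. By the median transcript length 5 of 9 genes kept their WT rank, and by Pearson correlation 0 of the 5 genes nearest to *Hilpda* were shared. TMM scaling was computed by a routine written for this work. The size of the adjusted p-values depended on the prior. Without a trend, that of *Hif1a* was 0.000314 against 4.00e-10 in the main fit, and that of *Acsl4* 0.00103 against 1.28e-08 (limma). For others it was smaller without a trend, such as *Slc27a1* (0.0211 against 0.0304) and *Pparg* (0.00757 against 0.00899). Quantile normalization also ended the calls of *Ddhd2*, *Faf2*, *Slc27a1* and *Pparg* (limma, adjusted p 0.0771 to 0.361), the fit without a trend those of *Ddhd2* and *Faf2*, and the fit of all genes those of *Faf2* and *Slc27a1*. Under quantile normalization 13 genes of the wider list were called higher and 7 lower, against 15 and 5 in the main fit, so other genes gained a call there. The cause was not tested.

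No pairing by replicate number was visible, as the correlations of deviations between same-numbered WT and N275D libraries were -0.05, 0.04 and -0.08. Whether same-numbered libraries were prepared together is not given in the sources used here, and these correlations cannot decide it. With a replicate block, 15 genes of the wider list were called higher and 4 lower, the call of *Faf2* being lost (limma, adjusted p = 0.0919). The planned fits with count tools on recovered reads were not run. Leaving out a library leaves 2 against 3. *G0s2* and 15 listed genes of the wider list lay below the minimum mean, and the part of depth in this was not tested.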
